A study of Mus musculus with 12 samples.

Results

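Ccr7, S1pr1, Klf2, Tcf7, Lef1, Foxo1, Bach2, Satb1 and Igfbp4 are genes of naive T cells and of T cell homing. These 9 genes were taken by symbol from the 45777 genes of the deposited table and were compared across 4 treatments. Ccr7 to Satb1 were named as members of this programme, with earlier results of these data known. Igfbp4 was selected on its measured rise from FK506 to Metformin+FK506, so its values in every comparison that involves an FK506 group are a description without a test. RNA sequencing of poly(A) RNA was performed on splenic T cells that had been isolated with CD4-coated magnetic beads from wild type C57BL/6 mice, aged 7 weeks per the labels (the methods give another age range). All 12 samples were kept for 3 days with anti-CD3 at 0.5 µg/ml, and the methods also list soluble anti-CD28. Control received no drug, Metformin received metformin alone, FK506 received FK506 alone, and Metformin+FK506 received both drugs, with 3 samples in each group. Metformin is a biguanide used in diabetes, and FK506 (tacrolimus) inhibits calcineurin, the phosphatase that sends NFAT to the nucleus after T cell receptor signalling. The drug concentrations of these cultures were not given in the sources used here. Nothing in the labels says whether the 3 samples of a group came from separate mice or cultures, so the p-values measure only the spread between these samples, which may be technical.

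A naive T cell recirculates between blood and lymphoid organs and carries receptors for that journey. CCR7 follows the chemokines CCL19 and CCL21 into lymph nodes, S1PR1 follows sphingosine 1-phosphate out of them, and KLF2 is the transcription factor that drives transcription of S1pr1. FOXO1 acts upstream of KLF2, CCR7 and the IL-7 receptor, and it leaves the nucleus when PI3K and AKT are active. TCF1 (the product of Tcf7) and LEF1 are related HMG-box factors that keep the naive and stem-like state, BACH2 represses effector genes, and SATB1 organises chromatin loops in T cells. IGFBP4 binds insulin-like growth factors, and its transcript is enriched in resting naive T cells. After strong receptor stimulation most of these transcripts are known to decline.

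The RefSeq genes (GRCm38.p6, the build named mm10 in the submitters' processing notes) place Foxo1 (gene 56458) at chr3:52268337-52350109, S1pr1 (gene 13609) at chr3:115710433-115715055 and Lef1 (gene 16842) at chr3:131110297-131224357. Bach2 (gene 12014) lies at chr4:32238413-32586109, Klf2 (gene 16598) at chr8:72319062-72321654, Tcf7 (gene 21414) at chr11:52246527-52283383 and Satb1 (gene 20230) at chr17:51736187-51833290. Igfbp4 (gene 16010, chr11:99040005-99052655) and Ccr7 (gene 12775, chr11:99144199-99155077) are neighbours on chromosome 11, separated by 91.5 kb that hold 1 other gene, Tns4.

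Promoter sequence was read for 7 of the 9 genes from RefSeq windows of 250 bases before and 50 bases after a start site, and Ccr7 and S1pr1 had no entry. Motif letters, chosen with the sequences in view, were searched on both strands over the 15 start sites of these genes and over 32544 distinct windows. The MEF2 letters, CTA and TAG separated by 4 bases, stood in 3.70% of all windows and, among the 7 genes, in that of Klf2 alone, 118 bases before its start. The FOXO core GTAAACA stood in 3.66% of all windows and, among the 7 genes, in 1 of the 2 Tcf7 windows. There it began at base 2 of the 50 bases after the start site, and not before the start. The NFAT core GGAAA stood in 61.5% of all windows, and in windows of Klf2, Tcf7, Lef1, Foxo1, Bach2 and Satb1, while the Igfbp4 window held none. The KLF core CCACCC stood in 31.6% of all windows and in windows of Klf2, Tcf7, Lef1 and Satb1. The TCF/LEF core CTTTGA stood in 16.0% of all windows and in windows of Lef1 and Bach2. These matches describe letters and not binding. The stretches of Klf2 and Igfbp4 are printed because these genes had the highest and the lowest log2 fold change with FK506, and the Tcf7 stretch because it holds the FOXO letters. Capitals mark the MEF2 letters and the NFAT core (read as TTTCC on this strand) in Klf2 and the FOXO core in Tcf7, and the Igfbp4 stretch holds none of the 5 motifs.
Klf2, chr8:72318812-72319032, plus strand: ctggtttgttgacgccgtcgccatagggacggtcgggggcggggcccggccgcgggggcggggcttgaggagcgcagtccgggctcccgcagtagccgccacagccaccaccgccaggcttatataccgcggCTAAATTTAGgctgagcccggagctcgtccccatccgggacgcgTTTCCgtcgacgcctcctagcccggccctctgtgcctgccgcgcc
Igfbp4, chr11:99040994-99041243, plus strand: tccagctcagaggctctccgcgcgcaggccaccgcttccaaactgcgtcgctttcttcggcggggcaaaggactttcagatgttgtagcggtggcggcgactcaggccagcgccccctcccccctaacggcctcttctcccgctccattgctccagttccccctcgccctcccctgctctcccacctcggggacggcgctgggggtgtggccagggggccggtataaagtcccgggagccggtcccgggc
Tcf7, chr11:52282577-52282605, minus strand: cctttataggaGTAAACAgacccccgcca

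Each library held between 43402632 and 64290105 counted reads, and the 9 genes had between 204 reads (Klf2 in 1 Control sample) and 70360 reads (Tcf7 in 1 Metformin+FK506 sample), so all 9 passed the filter on low values. Levels are given in FPKM, reads scaled to transcript length and library size, which allows genes to be compared per length. The summed FPKM of a library was 477754 to 482072 in Control and 491465 to 503231 in Metformin. It was 401972 to 414061 in FK506 and 393339 to 404703 in Metformin+FK506. Overlap of groups is stated in FPKM and can differ on TPM values. Differences are log2 fold changes of TMM-scaled counts, tested with edgeR's quasi-likelihood method. P-values were adjusted after Benjamini-Hochberg over all 15197 genes tested, with a threshold of 0.05. All 14 T cell markers, Cd3e and Cd4 among them, were expressed in every group, with a summed level of 2898 to 2955 FPKM in Control, 2688 to 2804 in Metformin, 2369 to 2482 in FK506 and 2509 to 2603 in Metformin+FK506. The 10 B cell markers summed to 62.9 to 66.9 FPKM in Control, 87.2 to 102 in Metformin, 886 to 926 in FK506 and 427 to 458 in Metformin+FK506. The 10 myeloid markers summed to 4.40 to 4.57 FPKM in Control and 8.73 to 10.0 in Metformin, where several defining genes (C1qa and C1qc in both) had no read, and to 1319 to 1368 in FK506 and 887 to 1007 in Metformin+FK506. Lyz2, at a mean of 981 FPKM in FK506 and 539 in Metformin+FK506, was the 1 myeloid marker that fell when metformin joined FK506, while 3 rose and 6 did not pass. The 6 markers of CD8 T and NK cells summed to 12.7 to 14.4 FPKM in Control and to 35.4 to 41.7 over the other 3 groups. Of the 4 of these 6 that were tested, 4 rose with metformin, while 2 (Klrd1 and Eomes) rose and Cd8b1 fell with FK506. The 5 dendritic cell markers summed to 2.60 to 2.80, 4.46 to 5.23, 60.3 to 66.9 and 39.1 to 42.3 FPKM in the same order of groups. The B cell, myeloid and dendritic cell sums were thus far higher in both FK506 groups, and 8 of 10 B cell markers also rose with metformin alone. Ccr7, S1pr1, Klf2, Foxo1 and Bach2 are also known in B cells. The part of B cells, myeloid cells, dendritic cells or CD8 T and NK cells in any result below was not tested. In bulk RNA, fewer cells of a type and less RNA per cell cannot be told apart.

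Ccr7 was the most abundant of the 9 transcripts in Control and rose with each drug alone, but the combination did not keep the level reached with FK506. It was measured at 200, 218 and 204 FPKM in Control, 319, 345 and 322 in Metformin, 499, 493 and 487 in FK506 and 289, 264 and 277 in Metformin+FK506. The 4 groups did not overlap, and their order was Control, Metformin+FK506, Metformin, FK506. Ccr7 rose 2.04-fold with FK506 (log2 1.03, SE 0.042, adjusted p = 7.34e-13) and 1.55-fold with metformin (log2 0.63, SE 0.041, adjusted p = 1.98e-09). Adding metformin to FK506 was accompanied by a fall of Ccr7 (log2 -0.81, SE 0.041, adjusted p = 9.53e-10), which left it 1.16-fold above Control (log2 0.22, adjusted p = 0.000133). The size of that last difference depended on the scaling, at log2 0.59 with scaling to the T cell markers and 0.68 on TPM values. Against Metformin, Ccr7 was lower in the combination by log2 -0.41 (SE 0.041), but this difference was -0.092 (adjusted p = 0.0548) when libraries were scaled to the T cell markers and turned to 0.073 (adjusted p = 0.123) on TPM values. The order of Metformin and Metformin+FK506 for Ccr7 therefore depended on the scaling.

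S1pr1 was low in Control and Metformin and far higher in both groups that received FK506. The Control samples held 8.22, 8.42 and 8.27 FPKM, and the Metformin samples 9.84, 11.1 and 10.0. The FK506 samples held 91.8, 87.8 and 84.1 FPKM, and the Metformin+FK506 samples 78.0, 73.7 and 77.8. No 2 groups overlapped. The rise with FK506 was 9.11-fold (log2 3.19, SE 0.049, adjusted p = 3.70e-18) and that with metformin 1.22-fold (log2 0.28, SE 0.049, adjusted p = 0.000127). The combination was below FK506 by a small amount (log2 -0.18, SE 0.043, adjusted p = 0.00493).

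Klf2 showed the largest change against Control of the 9 genes. Its level was 2.25, 1.97 and 1.80 FPKM in Control and 5.48, 4.37 and 5.15 in Metformin. With FK506 it was 69.1, 64.5 and 72.3 FPKM, and with both drugs 60.8, 67.4 and 52.1. The FK506 and Metformin+FK506 samples overlapped and the other groups stood apart. Klf2 rose 29.5-fold with FK506 (log2 4.88, SE 0.12, adjusted p = 6.68e-16) and 2.44-fold with metformin alone (log2 1.29, SE 0.13, adjusted p = 3.64e-07). Between the combination and FK506 the difference was log2 -0.16 with a 95% interval of -0.35 to 0.017 (adjusted p = 0.162), so a fall of that size could not be told from no change, and without Metformin+FK506 replicate 2 it was -0.28 (adjusted p = 0.0149).

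**Figure D1:**
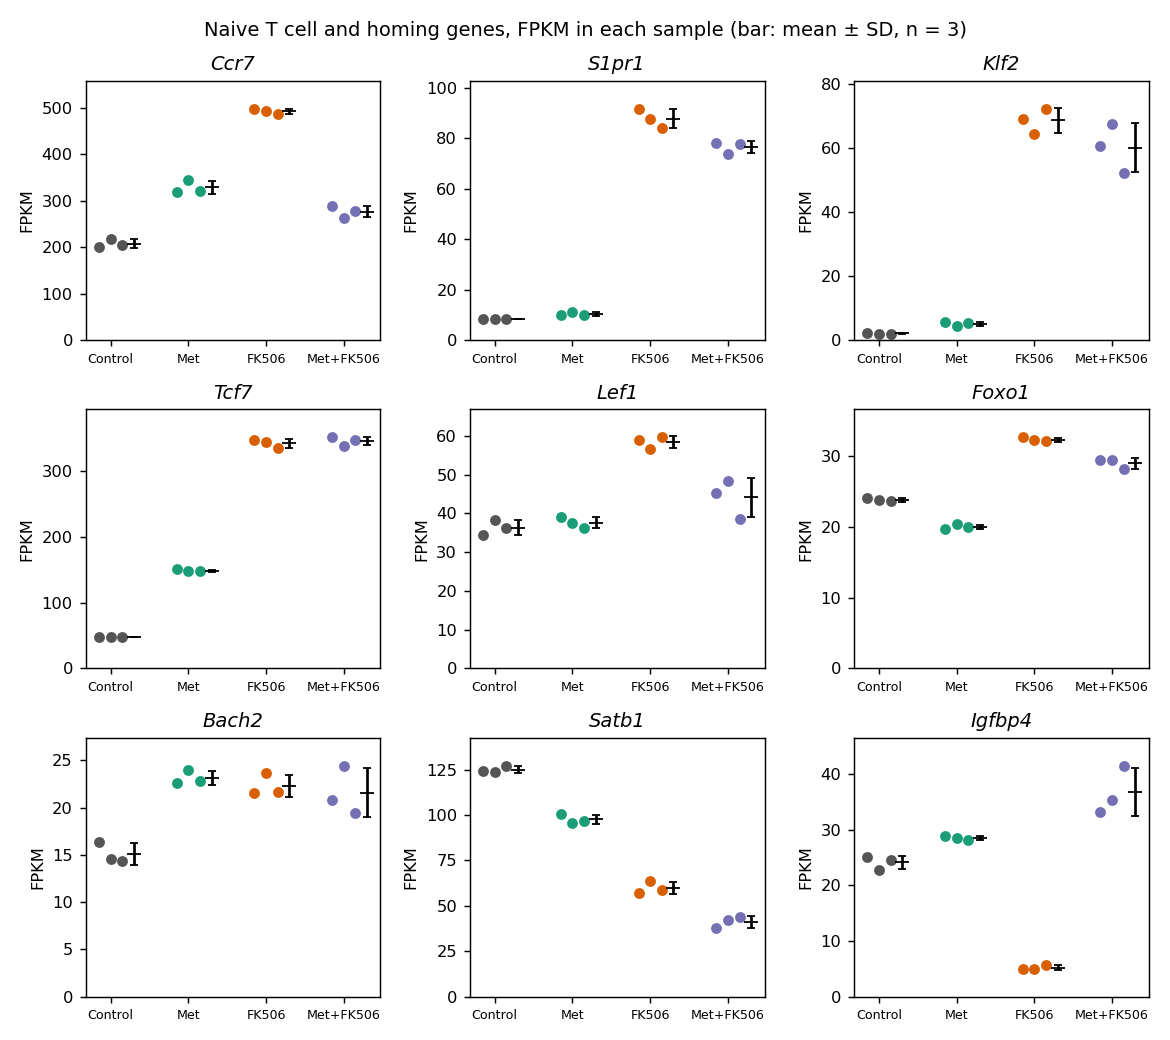
FPKM of each of the 9 genes (vertical axes, from 0, each gene on its own scale) in the 3 samples of Control, Metformin (Met), FK506 and Metformin+FK506 (Met+FK506). Points are samples and bars the mean ± SD; S1pr1, Klf2 and Tcf7 stand high in both FK506 groups, Satb1 stands low there, and Igfbp4 is low only in FK506, at 4.93 to 5.80 FPKM.

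Tcf7 rose with both drugs and reached the same range in both FK506 groups. It was measured at 47.7, 48.2 and 47.1 FPKM in Control and at 151, 148 and 148 in Metformin. The FK506 samples held 348, 344 and 336 FPKM and the Metformin+FK506 samples 352, 339 and 348. Only these last 2 groups overlapped. The rise was 5.98-fold with FK506 (log2 2.58, SE 0.031, adjusted p = 4.90e-19) and 2.96-fold with metformin (log2 1.57, SE 0.031, adjusted p = 9.83e-16), which made Tcf7 the gene of the 9 with the largest rise in Metformin. Adding metformin to FK506 gave a difference of log2 0.034 with a 95% interval of -0.029 to 0.096 (adjusted p = 0.423), and its sign turned to -0.083 with scaling to the T cell markers and to -0.041 after quantile normalization.

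Lef1, the partner of Tcf7 in the same family, moved far less. Its Control samples held 34.5, 38.4 and 36.1 FPKM, and its Metformin samples 39.0, 37.5 and 36.4. The FK506 samples stood above these at 58.8, 56.7 and 59.7 FPKM, and the Metformin+FK506 samples between, at 45.4, 48.5 and 38.6, overlapping Metformin. Lef1 rose 1.38-fold with FK506 (log2 0.47, adjusted p = 1.24e-07) and was lower in the combination than in FK506 (log2 -0.37, adjusted p = 1.77e-05). With metformin alone the difference was log2 0.051 (95% interval -0.050 to 0.15, adjusted p = 0.381; -0.0032 on TPM values). The combination was log2 0.095 above Control and did not pass the threshold (adjusted p = 0.0773), although it passed under other scalings, at 0.47 with scaling to the T cell markers and 0.54 on TPM values, and without Control replicate 2 (adjusted p = 0.0412) or Metformin+FK506 replicate 3 (adjusted p = 0.00768).

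Foxo1 was the one transcription factor of the set that fell with metformin while rising with FK506. Its level was 24.0, 23.7 and 23.6 FPKM in Control, 19.7, 20.3 and 19.9 in Metformin, 32.6, 32.2 and 32.0 in FK506 and 29.4, 29.4 and 28.1 in Metformin+FK506. No 2 groups overlapped, and the order was Metformin, Control, Metformin+FK506, FK506. On TMM-scaled counts the log2 difference was 0.23 with FK506 (adjusted p = 1.11e-05), -0.28 with metformin (adjusted p = 2.73e-06) and -0.13 when metformin joined FK506 (adjusted p = 0.00662). The combination was 0.094 above Control on the log2 scale (adjusted p = 0.0178), a call that was lost without Control replicate 3 (adjusted p = 0.0536) or Metformin+FK506 replicate 2 (adjusted p = 0.0755). Scaling to the T cell markers put Foxo1 further above Control, at 0.72 with FK506 and 0.47 with both drugs, and TPM values gave 0.67 and 0.54.

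Bach2 was higher than Control in all 3 drug groups, which overlapped each other in FPKM. On TPM values the Metformin samples (45.3 to 47.7) stood below those of FK506 (52.1 to 58.4) and Metformin+FK506 (48.0 to 61.6). It was measured at 16.4, 14.6 and 14.3 FPKM in Control and 22.6, 24.0 and 22.8 in Metformin. The FK506 samples held 21.6, 23.6 and 21.6 FPKM and the Metformin+FK506 samples 20.8, 24.4 and 19.4. Bach2 rose by log2 0.43 with metformin (adjusted p = 2.66e-07) and by 0.23 with FK506 (adjusted p = 0.000107). Over the alternatives that kept all samples, these rises were 0.42 to 0.61 and 0.20 to 0.78, so which was larger depended on the scaling. The combination differed from FK506 by log2 -0.047 (95% interval -0.14 to 0.043, adjusted p = 0.433). Against Metformin it was lower by log2 -0.25 (adjusted p = 5.23e-05) on TMM-scaled counts, but 0.070 with scaling to the T cell markers and 0.21 on TPM values (adjusted p = 0.0300), so that direction was not stable.

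Satb1 was the exception among the transcription factors, since it fell in every drug group. Control samples held 124, 124 and 127 FPKM, Metformin samples 101, 95.7 and 96.7, FK506 samples 57.1, 63.5 and 58.6 and Metformin+FK506 samples 37.7, 42.3 and 43.8. The groups formed a descending order in which no neighbours overlapped. Satb1 was 2.39-fold lower with FK506 (log2 -1.26, adjusted p = 6.05e-15; -0.76 with scaling to the T cell markers), 1.33-fold lower with metformin (log2 -0.41, adjusted p = 3.86e-08) and 3.50-fold lower with both drugs (log2 -1.81, adjusted p = 8.47e-17). Adding metformin to FK506 lowered it by a further log2 -0.55 (SE 0.035, adjusted p = 9.08e-09).

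Among the 9 genes, Igfbp4 alone was low in FK506 and high again in Metformin+FK506. It was measured at 25.1, 22.7 and 24.6 FPKM in Control, 28.9, 28.6 and 28.2 in Metformin, 4.97, 4.93 and 5.80 in FK506 and 33.2, 35.4 and 41.5 in Metformin+FK506. The FK506 samples were far below all others, and the Metformin+FK506 samples were the highest. On TMM-scaled counts the FK506 mean was 5.54-fold below Control, and the combination was 7.20-fold above FK506 and 1.30-fold above Control (log2 0.38, and 0.75 with scaling to the T cell markers). These values include those by which the gene was chosen and carry no test. The comparison of Metformin with Control was not used in the choice, and there Igfbp4 was 1.14-fold higher (log2 0.20, SE 0.070, adjusted p = 0.0271). That call rested on single libraries: it was lost without Control replicate 2 or 3 or without any 1 Metformin sample, with adjusted p-values of 0.0537 to 0.105. Ccr7, its neighbour on the chromosome, was at 493 ± 5.82 FPKM (SD, n = 3) in FK506 and 277 ± 12.6 in Metformin+FK506, against 5.23 ± 0.490 and 36.7 ± 4.29 for Igfbp4.

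FK506 against Control addressed what the calcineurin inhibitor alone did to the set in stimulated cells. Of the 8 genes tested, 7 rose, 1 fell (Satb1) and all 8 had non-overlapping groups. Across all 15197 genes, 80.9% were called, 41.3% higher and 39.6% lower, and 84.4% did not overlap, so the share of members called is near the background and only their direction and size are described. The median log2 fold change was 0.75 over the 8 genes and 0.024 over all genes. Scaling to the T cell markers moved the median of all genes to 0.51, with Lef1 at 0.96, Ccr7 at 1.52 and Bach2 at 0.72, and raised the share of called genes that were higher from 51.1% to 72.9%. The direction and call of each of the 8 genes in this comparison held under every alternative tried.

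Metformin against Control addressed metformin alone. Of the 9 genes, 6 rose (Tcf7, Klf2, Ccr7, Bach2, S1pr1 and Igfbp4), 2 fell (Satb1 and Foxo1) and Lef1 did not pass, while 56% of all genes were called, 28.6% higher and 27.4% lower. The groups did not overlap for 8 of the 9 genes and for 65% of all genes. The median log2 fold change was 0.28 over the members and 0.011 over all genes.

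Metformin+FK506 against Control shares its Control samples with the 2 comparisons above. Of 8 genes, 6 were higher, 1 was lower and Lef1 did not pass, against 81.7% of all genes called, 42.1% higher and 39.6% lower. Groups did not overlap for 8 of 8 genes and for 82% of all genes. The median was 0.20 over the 8 genes and 0.033 over all genes. Klf2 (26.3-fold), S1pr1 (8.06-fold) and Tcf7 (6.12-fold) carried the largest rises.

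**Figure D2:**
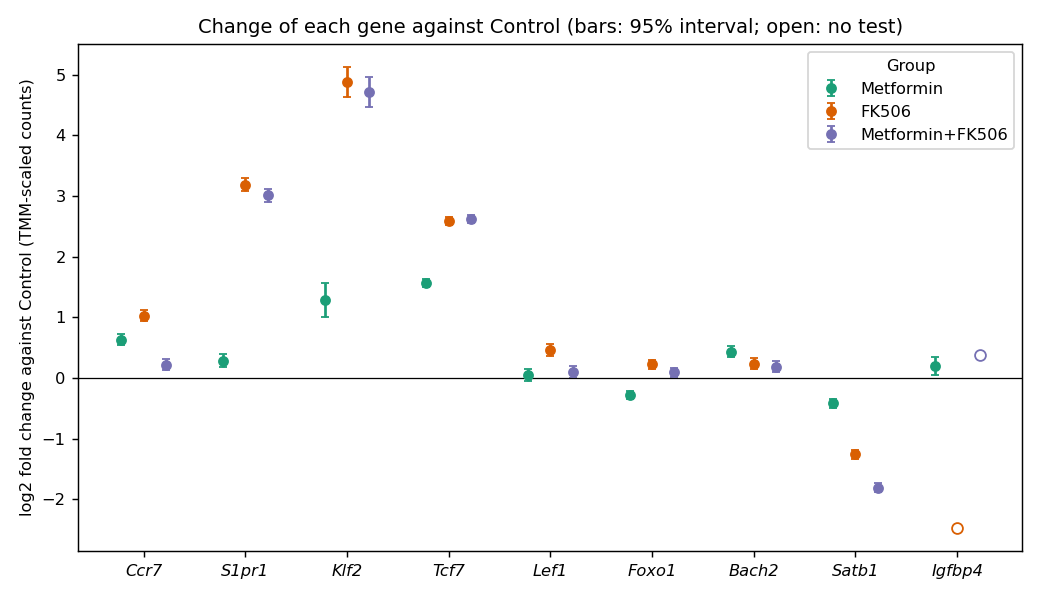
Log2 fold change of TMM-scaled counts against Control (vertical axis) for the 9 genes in Metformin, FK506 and Metformin+FK506. Bars are 95% intervals and open symbols mark Igfbp4 values without a test; Klf2 is highest at 4.88 with FK506 and Satb1 falls in all 3 groups.

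Metformin+FK506 against FK506 addressed what metformin added to the calcineurin inhibitor. None of the 8 genes rose by edgeR's test, also at an unadjusted p under 0.05, where 0 were higher and 5 lower. The 5 that fell were Ccr7, Satb1, Lef1, S1pr1 and Foxo1, and Klf2, Tcf7 and Bach2 did not pass. Among all genes 30.7% were called, 15.6% higher and 15% lower, and groups did not overlap for 5 of the 8 genes and for 38.6% of all genes. The median was -0.17 over the 8 genes and 0.0019 over all genes. Scaling to the T cell markers moved the median of all genes to -0.11 and the share of called genes that were higher from 50.9% to 20.6%, and there Klf2 (-0.28) and Bach2 (-0.16) were also called lower. The B cell marker sum stood at 427 to 458 FPKM in the combination against 886 to 926 in FK506.

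Metformin+FK506 against Metformin held 4 genes that were higher (Klf2, S1pr1, Tcf7 and Foxo1) and 3 that were lower (Satb1, Ccr7 and Bach2), with 78.2% of all genes called, 40.3% higher and 37.9% lower. Klf2 was 10.8-fold, S1pr1 6.62-fold and Tcf7 2.07-fold above Metformin, whereas Satb1 was 2.63-fold below it. Groups did not overlap for 6 of the 8 genes and for 78.2% of all genes. Lef1 differed by log2 0.043 (adjusted p = 0.416), and by -0.013 without Metformin+FK506 replicate 2. It was called higher with scaling to the T cell markers (log2 0.36, adjusted p = 2.87e-06) and on TPM values (log2 0.54, adjusted p = 2.09e-05), so whether Lef1 differed here depended on the scaling. Only Satb1 was called lower under scaling to the T cell markers or on TPM values, which left 1 lower gene in place of 3, and on TPM values Ccr7 (0.073) and Bach2 (0.21) turned. Those scalings moved the median of all genes from 0.025 to 0.34 and 0.45 and the share of called genes that were higher from 51.6% to 69.4% and 75.5%.

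**Figure D3:**
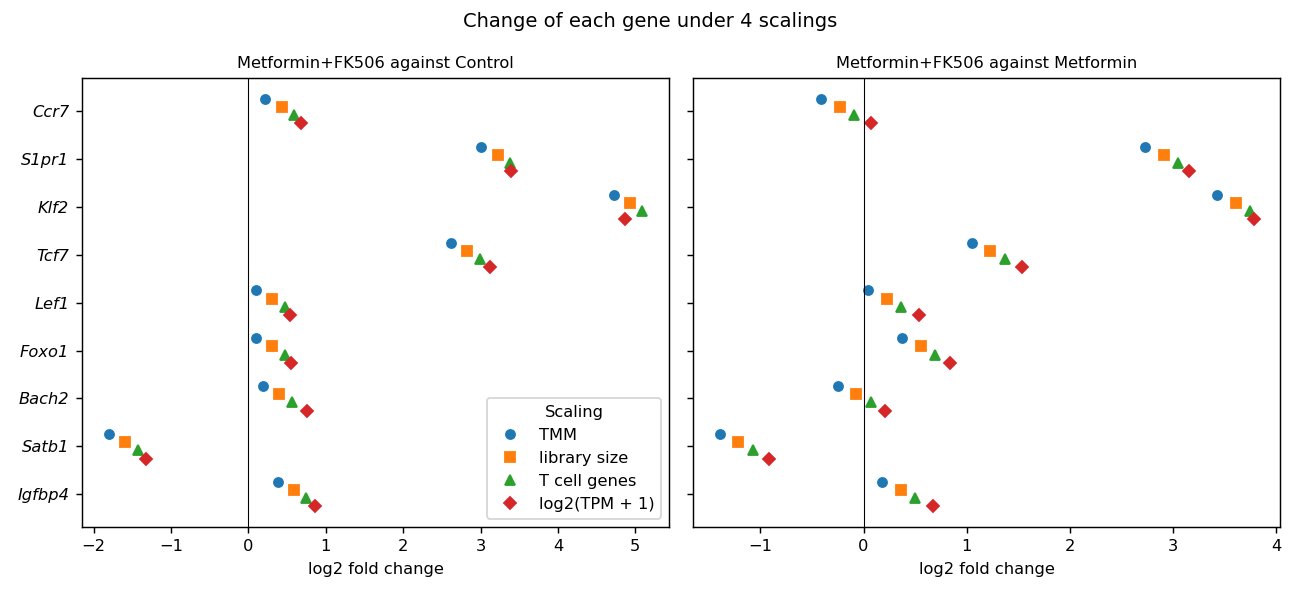
Log2 fold change (horizontal axes) of the 9 genes in Metformin+FK506 against Control and against Metformin, under 4 scalings: TMM, library size alone, T cell marker genes, and log2(TPM + 1). Ccr7 and Bach2 cross 0 against Metformin, at -0.41 to 0.073 and -0.25 to 0.21, while Klf2, S1pr1, Tcf7 and Satb1 keep their side.

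The interaction of metformin and FK506 tests whether the change with metformin was of the same size with and without FK506. For 7 of the 8 genes tested the change with metformin was lower in the presence of FK506, and for Foxo1 it was higher, while 46.5% of all genes were called, 24% lower and 22.5% higher. The interaction was -1.53 for Tcf7 (SE 0.042, adjusted p = 1.34e-13), whose change with metformin was log2 1.57 without FK506 and 0.034 with it. Klf2 gave -1.45 (SE 0.16, adjusted p = 1.20e-06). Ccr7 gave -1.44 (SE 0.059, adjusted p = 1.05e-11) and its change turned from a rise of 0.63 to a fall of -0.81. Bach2, S1pr1 and Lef1 followed at -0.48, -0.46 and -0.42, and S1pr1 turned in the same way, from a rise of 0.28 to a fall of -0.18. The values of Satb1 (-0.14, adjusted p = 0.0309, not past the threshold on leaving out any of 5 single libraries, nor on log2 FPKM without quantile normalization or on TPM values) and Foxo1 (0.15, adjusted p = 0.0175) were small, and that of Foxo1 turned to -0.022 with scaling to the T cell markers. The call of Foxo1 was also lost with library sizes alone, on log2 FPKM with or without quantile normalization, and without the low-count filter. The median was -0.47 over the 8 genes and -0.020 over all genes. Igfbp4, untested, had an interaction of 2.65.

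**Figure D4:**
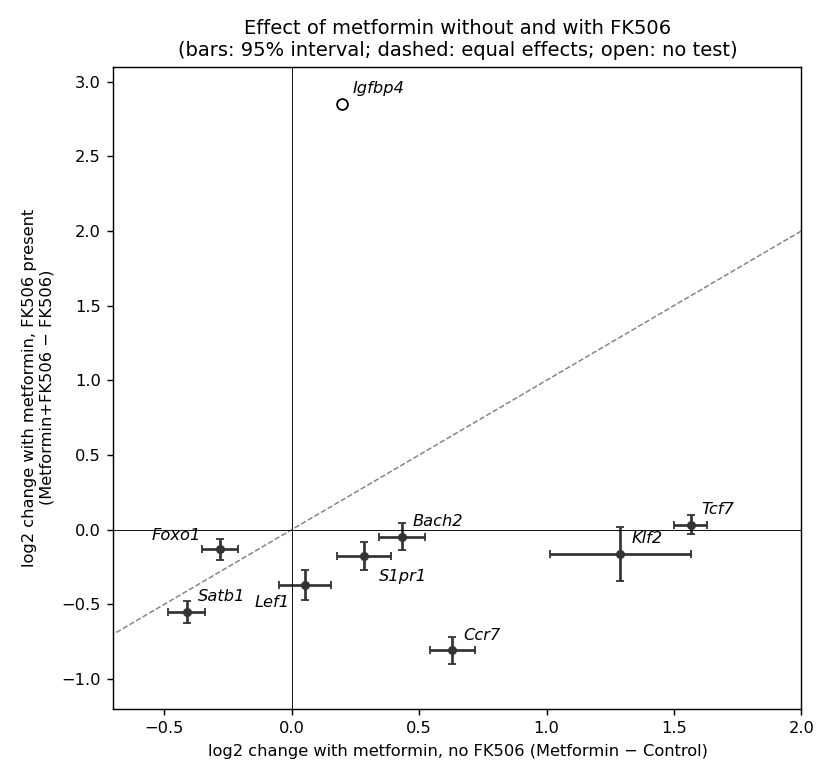
Log2 change with metformin in the absence (horizontal axis) and presence (vertical axis) of FK506 for the 9 genes, with 95% intervals and a dashed line of equal change. Tcf7 (1.57 and 0.034), Klf2 (1.29 and -0.16) and Ccr7 (0.63 and -0.81) lie below the line, Foxo1 (-0.28 and -0.13) lies just above it (just below, by -0.022, with scaling to the T cell markers), and Igfbp4 (open for lack of a test with FK506) lies far above it at 0.20 and 2.85.

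Related genes were described from lists chosen with earlier results known. Their counts stand beside the shares of all genes called, which were 80.9% with FK506 (41.3% higher), 56% with metformin (28.6% higher) and 30.7% when metformin joined FK506 (15.6% higher). Among 10 further homing and egress receptors, 6 rose and 2 fell with FK506 (median log2 0.48), but 10 were higher and 0 lower with scaling to the T cell markers (median 0.97) and on TPM values (median 0.92). In the same list 3 rose and 3 fell with metformin (median 0.0082), and 5 rose and 3 fell when metformin joined FK506 (median 0.059, but -0.058 with 2 higher and 5 lower under scaling to the T cell markers). Itga4, the integrin alpha 4 chain, had the largest rise of the list with FK506 (log2 3.41) and with metformin (log2 1.28). Cxcr4, the receptor of CXCL12, fell with metformin (log2 -0.91) and rose both with FK506 (log2 1.16) and when metformin joined it (log2 0.59). Cd69, which retains cells by opposing S1PR1, stood at 42.4 FPKM in Control and 48.5 in FK506 and passed in neither single-drug comparison (adjusted p = 0.428 with FK506 and 0.403 with metformin), although scaling to the T cell markers put it 0.45 above Control with FK506. Cd44, a marker of antigen experience, was lower with FK506 on TMM-scaled counts (log2 -0.22, adjusted p = 3.16e-05) but higher by 0.27 with scaling to the T cell markers and by 0.22 on TPM values.

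The 6 survival genes of resting T cells gave 4 rises and 2 falls with FK506 (median 0.60), and 4 rises and 2 falls with metformin (median 0.20). When metformin joined FK506, 3 rose and 1 fell, but none rose and 2 fell with scaling to the T cell markers. Il7r, the IL-7 receptor alpha chain and a known FOXO1 target, rose by log2 0.32 with FK506 and 0.22 with metformin, and fell by 0.21 when metformin joined FK506 (adjusted p = 0.00134). Il6st rose by log2 2.00 with FK506, whereas Bcl2 changed by -2.50, the lowest of this list. Cd27 rose by log2 1.15 with metformin, and Il4ra changed by -1.13.

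Most quiescence factors rose with FK506. With FK506, 13 of 14 rose and 1 fell (Foxo3, log2 -0.20, but 0.29 with scaling to the T cell markers), with a median of 0.95 against 0.024 over all genes. Klf3, a relative of KLF2, rose from a mean of 3.63 FPKM in Control to 25.6 in FK506 (log2 2.71, SE 0.055, adjusted p = 1.13e-16), and Foxp1, which restrains naive T cell activation, rose by log2 1.11 (adjusted p = 1.22e-13). With metformin 9 rose and 1 fell (Slfn2, log2 -0.39), with a median of 0.42 and with Pik3ip1, a brake on PI3K, highest at log2 1.45. When metformin joined FK506, 3 rose, 3 fell and 8 did not pass (median -0.0071; 1 higher and 7 lower with scaling to the T cell markers), with Cdkn1b highest (log2 0.34) and Btg1 lowest (-0.34), and Foxp1 fell by 0.19 (adjusted p = 0.00155).

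Among 11 partners and targets of TCF1 and LEF1, 6 rose and 2 fell with FK506 (median 0.21) and 5 rose and 2 fell with metformin (median 0.073). With FK506 the counts became 10 higher and 1 lower with scaling to the T cell markers (median 0.70) and with library sizes alone (median 0.43), and 9 and 1 on TPM values. Axin2, a classic TCF/LEF target, rose by log2 3.48 with FK506, Myb rose by 2.57 with metformin, and Gata3 fell by 1.95 and 1.44. When metformin joined FK506, 3 rose and 2 fell (median 0.14; 1 higher and 2 lower with scaling to the T cell markers), with Gata3 highest at log2 0.26 and Tle4, a corepressor, lowest at -0.28. Of 8 other naive T cell markers, 5 rose and 3 fell with FK506 (median 1.29) and 6 rose and 2 fell with metformin (median 0.57). Nsg2 led both rises, at log2 2.96 and 1.83, and the falls were led by Treml2 with FK506 (-2.23) and by Ly6c1 with metformin (-2.42). When metformin joined FK506, 5 of these 8 fell (median -0.17), Ly6c1 most (log2 -1.35), and 1 rose, Rgs10 (log2 0.28). That list therefore did not share 1 direction.

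Of the 9 genes of the IGF system that were listed beside Igfbp4, 4 passed the filter on low values, and 3 of these rose and 1 fell with FK506. Igfbp7 also stood higher in the combination, at 1.01 FPKM in Control, 1.95 in Metformin, 38.3 in FK506 and 80.5 in Metformin+FK506 (log2 1.10 over FK506, SE 0.068, adjusted p = 6.63e-09). Unlike Igfbp4, Igfbp7 was higher in FK506 than in Control (log2 5.03, adjusted p = 9.41e-17). Igf1, a ligand, was listed at 0 in all Control and Metformin samples and at a mean of 3.44 FPKM in FK506 and 3.72 in Metformin+FK506, in the same groups in which the myeloid markers were present. Igf2r, a scavenger receptor, was lower with FK506 by log2 -0.17 (adjusted p = 0.00325), but higher by 0.32 with scaling to the T cell markers.

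Most activation genes fell with each drug alone, and the proliferation genes fell in the 3 comparisons given here. With FK506, 7 of 10 activation genes fell and 1 rose (Prdm1, log2 0.94; 3 higher with scaling to the T cell markers), with a median of -2.32, and Tnfrsf9 had the largest fall (log2 -3.54). With metformin all 10 fell (median -1.17), led by Tfrc, the transferrin receptor (log2 -1.98). When metformin joined FK506, 2 rose and 4 fell (1 higher and 7 lower with scaling to the T cell markers), with Id2 highest (log2 0.26) and Myc lowest (log2 -0.43). All 8 proliferation genes fell with FK506 (median -1.88), with metformin (median -0.43) and when metformin joined FK506 (median -0.72). Aurkb, a mitotic kinase, fell by log2 2.37 with FK506 and by a further 0.90 with the combination, and Cdk1 had the largest fall with metformin (log2 -0.89).

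**Figure D5:**
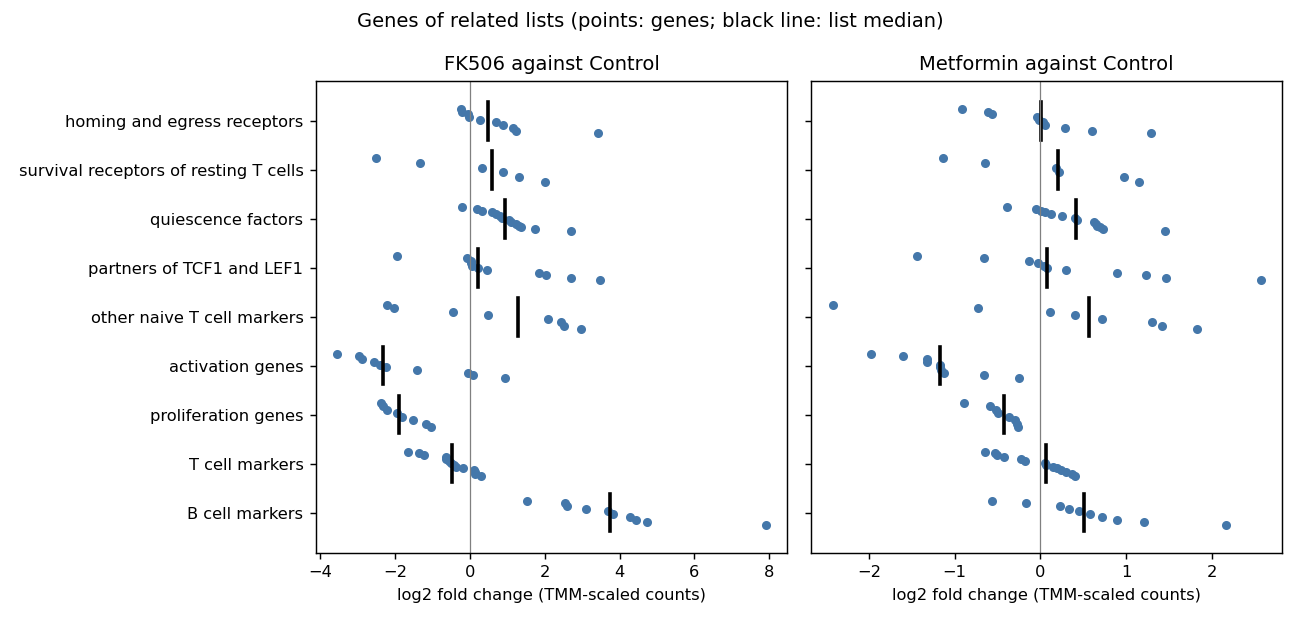
Log2 fold change of TMM-scaled counts (horizontal axes) for the genes of the related lists and the T cell markers in FK506 against Control and Metformin against Control. Each point is a gene and the black line the list's median, which is 0.95 for quiescence factors, -2.32 for activation genes and -1.88 for proliferation genes with FK506.

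The genes nearest to each member were found by the root mean square distance of centred log2(FPKM + 1) values over the 12 samples, among 12784 genes with a mean of at least 1 FPKM. These distances are descriptions, and the points share libraries and treatments. Tcf7 lay nearest to Arhgef18 (0.076), Rasa3 (0.10) and Eomes (0.12). S1pr1 lay nearest to Psap (0.083), Slc7a11 (0.089) and Ctsd (0.095), of which Psap and Ctsd encode lysosomal proteins. Klf2 lay nearest to Cd68 (0.19), which is 1 of the myeloid markers, then to Syk (0.22) and App (0.22). Cd68 stood at a mean of 4.29 FPKM in Control, 8.81 in Metformin, 113 in FK506 and 126 in Metformin+FK506. Ccr7 lay nearest to Dglucy (0.12), Eno3 (0.13) and Marveld1 (0.15). Satb1 lay nearest to Cip2a (0.060), Cenpf (0.084) and Gm15452 (0.090), with Cip2a at 10.9, 8.4, 5.0 and 3.2 FPKM in Control, Metformin, FK506 and Metformin+FK506. Lef1 (Commd9, 0.057), Foxo1 (M6pr, 0.036) and Bach2 (Lrrc28, 0.070) had close neighbours too. Igfbp4 had none as near: Nbl1 lay at 0.45, Ckb at 0.63 and Mdfic at 0.65, and Nbl1 stood at 6.8, 7.8, 2.1 and 7.2 FPKM in the same order of groups. Ckb and Mdfic were also lowest in FK506, at 27.8 and 15.8 FPKM, and higher in Metformin+FK506, at 51.6 and 28.5. The shape of Igfbp4 was therefore shared, with a smaller range, by these genes.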

How the data were processed

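Poly(A) RNA of 12 samples, 3 in each of 4 treatments, was analysed. The authors deposited 1 table with whole-number read counts, FPKM and TPM for 45777 genes, and all 36 columns were matched to samples by label. The submitters' processing notes name bcl2fastq 2.20.0, Trimmomatic, HISAT2 2.1.0, StringTie 2.1.3b and mm10, without their roles. Whether counting used strand, and how reads shared by paralogs were treated, is not given in the sources used here. Deposited FPKM values served as levels and deposited TPM values as an alternative. Counts were tested with edgeR 4.0.16 (TMM, glmQLFit and glmQLFTest) in R 4.3.3, with all groups in 1 fit with 8 residual degrees of freedom. Genes with at least 0.5 FPKM in at least 3 samples (15197) entered, and the threshold was a Benjamini-Hochberg adjusted p of 0.05. SE was derived from the fold change and its F statistic, and 95% intervals from the SE. For a simulated 2-fold change of 200 genes in FK506 against Control, 170 were called, with 18 false calls. In the data 80.9% of the 15197 genes were called in that comparison, and calling with changes that wide was not tested. Alternatives used DESeq2 1.42.0 and limma 3.58.1. The 9 members and the lists were chosen with earlier results of these data known. Listed genes were named where they had the largest rise or fall past the threshold in FK506 or Metformin against Control or in Metformin+FK506 against FK506, besides Il7r, Cd69, Cd44, Klf3 and Foxp1 (1 further listed gene is not reported here), and the 3 nearest genes of each member were given. The markers named beside a sum were taken from the same lists. Replicates were compared by a chi-square of their counts, which per degree of freedom was 4.10 to 16.0 over 12 pairs, which is above sampling noise, and no 2 libraries were treated as 1. No batch is labelled.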

Additional observations from a re-analysis of the deposited data

Results flagged for a closer look

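The change with metformin differed with and without FK506 for the 8 genes tested, by edgeR's interaction term with Benjamini-Hochberg adjusted p-values, in 3 samples per group. On the log2 scale the difference of the 2 changes was -1.44 for Ccr7, -0.46 for S1pr1, -1.45 for Klf2, -1.53 for Tcf7, -0.42 for Lef1, 0.15 for Foxo1, -0.48 for Bach2 and -0.14 for Satb1. Across all genes tested, 46.5% were called. The value of Foxo1 was lost or reversed under 6 alternatives and that of Satb1 was lost under 3 units or pseudocounts and without Control replicate 1 (adjusted p = 0.0718), FK506 replicate 2 (0.0791), Metformin replicate 1 (0.0601) or 3 (0.0638), or Metformin+FK506 replicate 1 (0.0721). With FK506 present, B cell markers also differed between the 2 arms (427 to 458 FPKM with metformin, 886 to 926 without), and their part in these differences was not tested.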

How the results depend on the processing

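The counts of members called were within 1.5 times the reported ones under most alternatives. Members lower in Metformin+FK506 against Metformin came to 1 in place of 3 with scaling to T cell genes and on log2(TPM + 1), an alternative chosen after seeing the data. The 1 member higher in the interaction, Foxo1, became 0 with library sizes without TMM factors, scaling to T cell genes, limma on log2(FPKM + 1), on log2(FPKM + 0.1) or on quantile-normalized values, and without the low-count filter. Directions reversed for Lef1 in Metformin against Control (-0.0032 on TPM), for Tcf7 in Metformin+FK506 against FK506 (-0.083 with T cell genes, -0.041 quantile-normalized), for Bach2 (0.070 with T cell genes, 0.21 on TPM), Ccr7 (0.073 on TPM) and Lef1 (-0.013 to 0.098 with single samples left out, the lowest without Metformin+FK506 replicate 2) in Metformin+FK506 against Metformin, and for the interaction of Foxo1 (-0.022 with T cell genes). The cause was not tested. Leaving out single samples gave 5 to 6 members higher with metformin, 5 to 7 higher with both drugs and 5 to 6 lower when metformin joined FK506. Lef1 in Metformin+FK506 against Metformin was called higher with library sizes without TMM factors (0.22), T cell genes (0.36), log2(FPKM + 1) (0.22), log2(FPKM + 0.1) (0.23) and TPM (0.54). Foxo1 in Metformin+FK506 against Control was also lost without the low-count filter (adjusted p = 0.379) and with filterByExpr (0.084), and Igfbp4 in Metformin against Control without the filter (0.057) and on TPM (0.0625).

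Scaling to T cell genes moved the median of all genes to 0.41 in Metformin+FK506 against Control (share of called genes that were higher 68.4%, against 51.6%) and to -0.19 in the interaction (27.9%, against 48.3%). Library sizes without TMM factors gave shares of 62.0% for FK506 against Control, 61.7% for Metformin+FK506 against Control and 62.1% for Metformin+FK506 against Metformin, and log2(TPM + 1) gave 71.2%, 71.0% and 75.5%. For FK506 against Control, limma on log2(FPKM + 1) and on log2(FPKM + 0.1) gave 61.3% and 61.5%.

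Deviations of samples with the same replicate number correlated at -0.086 to 0.054 over 18 pairs, and those with other numbers at -0.063 to 0.079 over 36 pairs. None of the 12 samples correlated best with its own number in every other group at once. Control replicate 2 and Metformin replicate 2 were each other's best match between those groups (0.054). With 3 samples per group, these values cannot exclude a pairing. With the replicate block, 54 of 54 member values and 18 of 18 counts kept their call or direction, with 7 members higher and 1 lower in FK506 against Control.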
